A study of Mus musculus with 8 samples.

Results

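The genes described here encode the proteins of the cytosolic ribosome. They were taken by symbol from the gene identifiers of the count tables: protein-coding genes named Rps or Rpl with a number (and at most a short suffix), the P stalk genes Rplp0, Rplp1 and Rplp2, and Rpsa, without the Rps6k kinases and without pseudogenes. This gave 82 of 37583 gene identifiers, 32 for the small subunit and 50 for the large. RNA was sequenced from splenic B cells of C57BL/6 mice in 8 libraries. TLR denotes 2 libraries from cells kept for 3 days in culture with CpG ODN1668, an oligonucleotide ligand of the endosomal receptor TLR9, and exposed during the last 5 hours to LPS, which is sensed by TLR4, to the protein kinase C activator PMA and to the calcium ionophore ionomycin. CpG denotes 3 libraries from cells given CpG ODN1668 alone over the same 3 days, and naive denotes 3 libraries from naive cells. Age and sex were not given in the sources used here, and nothing in the labels ties replicates to different mice or cultures, for which reason p-values measure only how these libraries vary.

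A ribosome joins a small subunit, which reads the message, to a large subunit, which links amino acids. Each subunit is a core of ribosomal RNA wrapped in proteins that are mostly present in a single copy, so cells need these proteins in matched amounts. In mammals nearly all of them come from a single active gene each, whose message starts with a run of pyrimidines, the 5′ terminal oligopyrimidine (TOP) tract, through which mTORC1 and the binding protein LARP1 control translation. Resting B cells hold little RNA and protein and enlarge when activated, and activated lymphocytes are known for raising ribosome production, in part through Myc. Most ribosomal protein genes also have many processed pseudogenes, copies of their spliced message, elsewhere in the genome.

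These copies bear on every value below, because reads that align to several places were set apart by the counting and belong to no gene. The share of the principal transcript's 30-base windows that also occur in a transcript of another locus had a median of 48.4% over the 82 members. It ran from 0% for Rpl3l to 98.7% for Rps27, and 81 members shared windows with at least 1 annotated pseudogene. Rps27, a zinc finger protein of the small subunit, shows how close a copy can be. The first 90 coding bases are given for Rps27, for the retrogene Rps27rt and for the paralog Rps27l, with capitals in Rps27l for bases that differ from Rps27; the sequences are from the GENCODE M21 transcripts (GRCm38).
Rps27, chr3:90212522-90213651, minus strand: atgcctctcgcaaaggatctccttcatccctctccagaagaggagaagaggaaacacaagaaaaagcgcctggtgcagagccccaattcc
Rps27rt, chr9:114982366-114982739, minus strand: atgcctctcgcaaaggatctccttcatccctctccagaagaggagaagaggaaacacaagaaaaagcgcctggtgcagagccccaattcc
Rps27l, chr9:66946086-66949516, plus strand: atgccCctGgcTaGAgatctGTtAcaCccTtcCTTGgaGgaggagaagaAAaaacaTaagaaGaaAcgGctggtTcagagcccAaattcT
Over all 255 coding bases Rps27rt had 0 differences from Rps27, and Rps27l had 61 (76.1% identity). The positions are those of the whole genes. A read from within this stretch of an Rps27 message therefore has a second, equally good place to align in Rps27rt.

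A second stretch shown is the annotated start of transcription, near which a TOP tract would begin. RefSeq promoter windows (GRCm38.p6) matched 62 of the 82 members. Given here are the 15 bases before and the 15 bases from the RefSeq start for 2 members that were higher in CpG than in naive libraries (Rpl4, Rplp0) and for 2 that were lower (Rps27, Rpl9), with capitals marking the first match to any of 3 pyrimidine words (CTTTC and CTTTT and CCTTT).
Rpl4, chr9:64173372-64173401, plus strand: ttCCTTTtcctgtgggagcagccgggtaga
Rplp0, chr5:115559452-115559481, plus strand: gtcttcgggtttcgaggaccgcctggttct
Rps27, chr3:90213634-90213663, minus strand: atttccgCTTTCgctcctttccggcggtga
Rpl9, chr5:65391417-65391446, minus strand: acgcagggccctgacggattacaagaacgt
Any of these 3 words, which overlap each other, occurred on the sense strand in 20 of the 62 member windows (32.3%), against 8.00% of 27025 promoter windows of the same length. For members the promoter nearest the start of the principal transcript was taken, up to 2614 bases away (Rpl18). For all genes the first promoter listed was taken, so the windows were not chosen by the same rule. On the opposite strand the words occurred in 3 member windows (4.84%), against 7.70% of all windows. The palindrome CACGTG, the core of the site bound by Myc and Max, occurred within the 300-base promoters of 5 members (8.06%), against 7.24% of all promoters. In Rpl4 and Rps27 the capitals lie before the RefSeq start, so by this annotation the capitals are outside the message. Only the first match is capitalised, and in Rps27 a further match follows it. By this annotation the Rps27 message begins with cctttcc, a run of pyrimidines that holds CCTTT, while that of Rpl4 begins with gagca. The principal GENCODE transcript starts 12 bases from the RefSeq start in Rpl4 and 3 bases from it in Rps27. The first bases of both messages, and whether the capitals lie outside them, therefore depend on the annotation used. Whether any of these letters act as a TOP tract was not tested. In the windows printed, the words were present in Rpl4 and Rps27 and absent from Rplp0 and Rpl9. The members printed were picked by the direction of their change between CpG and naive libraries. Their windows therefore cannot show whether the words go with direction, and this was not tested over the 62 member windows.

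Gene counts, without the summary lines of the files, summed to 15804311 to 20069272 a library. The members took 3.91% and 3.18% of gene counts in TLR replicates 1 and 2, while the 3 CpG libraries in replicate order gave 3.51%, 3.00% and 2.59% and the 3 naive libraries 2.30%, 1.90% and 2.01%. Every TLR and CpG library stood above every naive library, while the TLR and CpG ranges overlapped. Multiply aligned reads moved the same way: 50.2% and 21.5% of all lines in TLR libraries, 47.1%, 19.9% and 18.1% in CpG libraries, and 37.5%, 15.1% and 14.7% in naive libraries. Replicate 1 of each group, whose files carry the prefix RCa1 where the others carry RCa18, stood apart with more multiply aligned reads, and it also had the highest member share of its group. How far the multiply aligned reads came from ribosomal protein messages was not tested. As a share of all lines, which counts those reads in the total, members took 1.59% and 2.16% in TLR, 1.44%, 2.06% and 1.82% in CpG, and 1.10%, 1.29% and 1.38% in naive libraries, and within each prefix the order TLR, CpG, naive was kept. By this measure replicate 1 was the lowest library of each group.

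**Figure D1:**
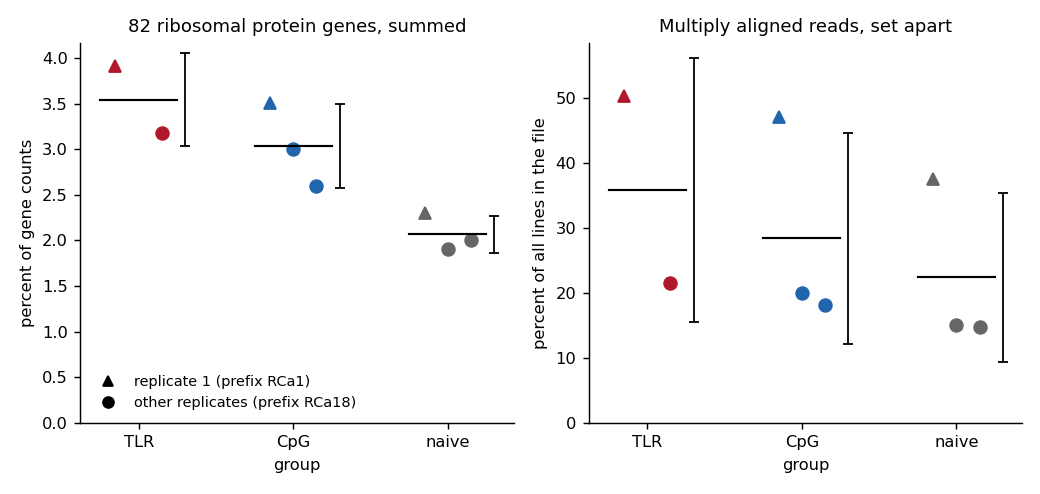
Summed counts of the 82 ribosomal protein genes as percent of gene counts (left) and multiply aligned reads as percent of all lines (right), by group; points are libraries (triangles replicate 1), horizontal lines are group means and vertical bars are ± 1 SD. Member shares lay at 3.18% to 3.91% in TLR, 2.59% to 3.51% in CpG and 1.90% to 2.30% in naive libraries, and replicate 1 was highest in all 3 groups on both measures.

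Identity and purity of the cells were examined with marker genes. All 6 B cell markers were detected, with summed levels of 2553 to 2726 CPM in TLR, 8501 to 12747 CPM in CpG and 10010 to 10678 CPM in naive libraries, where CPM is the count scaled to a common library total with TMM factors, and all 6 were lower in TLR than in CpG libraries and none was called between CpG and naive libraries. Naive libraries also held the highest macrophage and monocyte marker sums, at 13.7 to 16.6 CPM in TLR, 17.4 to 36.3 CPM in CpG and 140 to 917 CPM in naive libraries, and natural killer markers summed to 1.07 to 1.60 CPM in TLR, 1.74 to 2.99 CPM in CpG and 11.9 to 46.6 CPM in naive libraries. T cell markers summed to 22.7 to 24.0 CPM in TLR, 40.8 to 67.5 CPM in CpG and 57.5 to 77.2 CPM in naive libraries. Of these lists, 7 of 8 macrophage, 5 of 5 natural killer and 7 of 8 T cell markers were called lower in CpG than in naive libraries. Plasma cell markers summed to 412 to 503 CPM in TLR, 565 to 640 CPM in CpG and 353 to 1340 CPM in naive libraries, dendritic cell markers to 3.11 to 4.95, 11.5 to 40.4 and 17.2 to 36.7 CPM, and erythroid markers to 0.310 to 1.30, 0.654 to 1.80 and 2.90 to 41.2 CPM, in the same order of groups. The 4 neutrophil markers had no counts in TLR libraries and at most 4.38 CPM in all in a naive library. The part of other cells in the member values was not tested, and in these bulk samples fewer cells of a type and less RNA per cell cannot be told apart.

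Of the 82 members, 80 had enough counts to be tested. Rpl10l, a paralog of Rpl10, had no count in any library, and Rpl3l, the striated muscle paralog of Rpl3, had at most 2 counts in any library. Rpl24 is not analysed here. Levels were compared between genes only per kilobase of the principal transcript. They ran from 0.485 CPM per kb (Rpl39l) to 2372 CPM per kb (Rplp1), with 10 tested members below 10 CPM per kb and 10 above 1000. Rpl8 and Rpl4, with 8.38% and 33.3% of their windows shared, averaged 2046 and 1874 CPM per kb. Rpl23a, Rps6 and Rps27, with 83.2%, 84.9% and 98.7% of their windows shared, averaged 1.37, 6.00 and 10.4 CPM per kb. The relation was loose, with a Spearman rho of -0.18 between shared percent and level per kb over the 80 members, which share the same libraries.

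Cultured with CpG, B cells had higher levels of many ribosomal protein genes than naive B cells. The edgeR quasi-likelihood test called 33 of the 80 members higher and 5 lower in CpG than in naive libraries, where 23.5% of all 13964 tested genes were called higher and 21.9% lower. The median log2 fold change of CpG over naive was 0.43 over the members and 0.01 over all tested genes. Both subunits took part, with 12 higher and 2 lower of 32 small subunit genes and 21 higher and 3 lower of 48 tested large subunit genes. Without naive replicate 2 the counts were 21 higher and 3 lower, where 2544 of all 13814 tested genes were higher and 2395 lower. Without CpG replicate 1 the member counts were 24 and 12, where 3439 of all 13877 tested genes were higher and 3303 lower. Without CpG replicate 2 or CpG replicate 3 there were 3 lower members, where 2445 and 2579 of all 13910 tested genes were lower. In the 5 libraries with the prefix RCa18 the counts were 35 higher and 10 lower. Scaled to all lines in place of gene counts, 3 of 79 tested members were higher and 4 lower. In that setting 1456 of all 13814 tested genes were higher and 1560 lower, so the member shares were below those of all genes.

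The P stalk, a flexible arm of the large subunit that recruits the elongation factors, had 2 of its 3 genes higher. Rplp0, the base of the stalk, had 1849, 1526 and 1512 CPM in CpG libraries, against 719, 690.2 and 639.9 CPM in naive libraries. All 3 CpG libraries lay far above every naive library, and the log2 fold change was 1.25 ± 0.14 (SE; edgeR adjusted p = 0.000106). Rplp1 averaged 1163 ± 244 CPM in CpG and 825 ± 105 CPM in naive libraries (SD, n = 3 each), and its log2 fold change of 0.50 ± 0.17 (edgeR adjusted p = 0.0363) lost its call without naive replicate 2, naive replicate 3, CpG replicate 1 or CpG replicate 2 (edgeR adjusted p = 0.0676 to 0.128). Rplp2 was not called (0.28 ± 0.24).

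Rps26 kept its call in every alternative, and Rpl7, Rps19, Rpl31 and Rpl4 kept theirs in every alternative other than the scaling to all lines. Rps26, which lines the channel where the message leaves the small subunit, had 574, 478 and 464 CPM in CpG libraries, against 249, 219 and 226 CPM in naive libraries (log2 fold change 1.13 ± 0.13, edgeR adjusted p = 0.000142). Every CpG library was above every naive library. Rpl7 averaged 697 ± 22.0 CPM in CpG and 382 ± 33.7 CPM in naive libraries (0.87 ± 0.11, edgeR adjusted p = 0.000235). Rps19, the gene most often mutated in the human bone marrow failure Diamond-Blackfan anaemia, had 591, 396 and 425 CPM in CpG libraries, against 300.4, 239 and 257 CPM in naive libraries (0.82 ± 0.17, edgeR adjusted p = 0.0039). Rpl31, near the exit of the peptide tunnel, was higher at a low level, with 12.4, 11.4 and 12.4 CPM in CpG and 6.82, 5.26 and 5.84 CPM in naive libraries (1.02 ± 0.19, edgeR adjusted p = 0.00195), and its exons overlap those of Tbc1d8 on the opposite strand. Rpl4, whose loop narrows the peptide tunnel, averaged 3150 ± 242 CPM in CpG and 2003 ± 78.6 CPM in naive libraries (0.65 ± 0.12, edgeR adjusted p = 0.00213).

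Rpl39l, the paralog of the tunnel protein Rpl39 known from mouse testis, had the highest fitted change (1.70 ± 0.61, edgeR adjusted p = 0.0439), but from few reads, 27 counts over the CpG libraries and 9 over the naive libraries. Its call was lost when any library other than naive replicate 1 was left out (edgeR adjusted p = 0.0525 to 0.131), and DESeq2 did not call it. Rpsa, a small subunit protein also known as the laminin receptor precursor, had 62.5, 35.0 and 36.7 CPM in CpG libraries, against 31.4, 20.5 and 24.1 CPM in naive libraries (0.82 ± 0.26, edgeR adjusted p = 0.0289). The call of Rpsa was lost without naive replicate 2, naive replicate 3 or CpG replicate 1 (edgeR adjusted p = 0.0799 to 0.102). Rpl13a, which also serves a translational control complex in human monocytes, was not called at 0.55 ± 0.23.

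The 5 members lower in CpG than in naive libraries were Rps27, Rps13, Rpl9, Rpl10 and Rpl12. Rps27 had 2.71, 1.17 and 1.25 CPM in CpG libraries, against 6.40, 3.50 and 5.84 CPM in naive libraries (log2 fold change -1.62 ± 0.39, edgeR adjusted p = 0.00749). Every CpG library was below every naive library, although replicate 1 was the highest of both groups. The retrogene Rps27rt, whose coding bases are identical, was itself given 2.62 to 4.80 CPM in CpG and 2.19 to 7.31 CPM in naive libraries, and those ranges overlapped. Rps13, a universal small subunit protein, had 6.45, 4.00 and 3.87 CPM in CpG libraries, against 14.0, 11.4 and 12.8 CPM in naive libraries (-1.42 ± 0.23, edgeR adjusted p = 0.00101). With the counts of its named pseudogene copies added, the change of Rps13 was -0.21 (edgeR adjusted p = 0.466) and the call was lost.

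Rpl9, of which 93.5% of windows were shared, had 27.6, 20.3 and 17.998 CPM in CpG libraries, against 34.5, 49.0 and 45.8 CPM in naive libraries (-0.97 ± 0.19, edgeR adjusted p = 0.00221). The groups did not overlap, and in naive cells replicate 1 was the lowest library. Rpl10, which joins the large subunit last and readies it for tRNA, had 38.3, 25.9 and 25.03 CPM in CpG libraries, against 43.7, 47.5 and 44.5 CPM in naive libraries (-0.61 ± 0.17, edgeR adjusted p = 0.0152). This call was lost without naive replicate 2, CpG replicate 2 or CpG replicate 3 (edgeR adjusted p = 0.05001 to 0.0605). Rpl12, at the base of the P stalk, was lower at -0.46 ± 0.16 (edgeR adjusted p = 0.0434), a call lost when any library other than CpG replicate 1 was left out (edgeR adjusted p = 0.0509 to 0.138), and its exons overlap Lrsam1 on the opposite strand. Rps29 and Rpl38, with fitted changes of -1.07 ± 0.51 and -0.81 ± 0.50, were not called.

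In the second comparison, of cells given LPS, PMA and ionomycin after CpG with cells given CpG alone, members moved in 1 direction. Against CpG libraries, TLR libraries had 26 of 80 members called higher and 0 called lower, where 19.0% of all tested genes were called higher and 19.8% lower. None was lower at an unadjusted edgeR p below 0.05 or in DESeq2. The median log2 fold change of TLR over CpG was 0.31 over the members and -0.02 over all tested genes, with 10 of 32 small subunit genes and 16 of 48 large subunit genes higher. Without TLR replicate 1, where TLR replicate 2 stands alone, the member median was 0.20, against -0.04 over all tested genes. Scaled to all lines, 15 of 79 members were higher, against 598 of all 13814 tested genes. Without CpG replicate 3, 19 members were higher and 1 was lower, where 2366 of all 13910 tested genes were higher and 2545 lower.

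All 5 members that had been lower in CpG than in naive libraries were higher in TLR than in CpG libraries. Both comparisons use the CpG libraries, with opposite sign, so this is no independent result, and the values are given side by side. Rpl9 had 61.0 and 55.0 CPM in TLR libraries, against 27.6, 20.3 and 17.998 CPM in CpG libraries (1.40 ± 0.20, edgeR adjusted p = 0.00051). Rpl10 had 70.8 and 84.4 CPM in TLR libraries, against 38.3, 25.9 and 25.03 CPM in CpG libraries (1.38 ± 0.18, edgeR adjusted p = 0.000312). Rpl12 had 141 and 113 CPM in TLR libraries, against 54.7, 39.6 and 35.7 CPM in CpG libraries (1.55 ± 0.18, edgeR adjusted p = 0.000133). For Rpl9, Rpl10 and Rpl12 both TLR libraries were also above every naive library, and Rpl10 and Rpl12 were called in TLR over naive while Rpl9 was not (0.43 ± 0.20, edgeR adjusted p = 0.0885). Rps13 had 13.4 and 11.6 CPM in TLR libraries, inside its naive range, and its call against CpG (1.39 ± 0.25, edgeR adjusted p = 0.00205) was lost with named copies added (0.50, edgeR adjusted p = 0.132). Rps27 had 3.73 and 4.13 CPM in TLR libraries (1.21 ± 0.42, edgeR adjusted p = 0.0467), a call lost without naive replicate 3, CpG replicate 2, CpG replicate 3, TLR replicate 1 or TLR replicate 2 (edgeR adjusted p = 0.066 to 0.167).

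**Figure D2:**
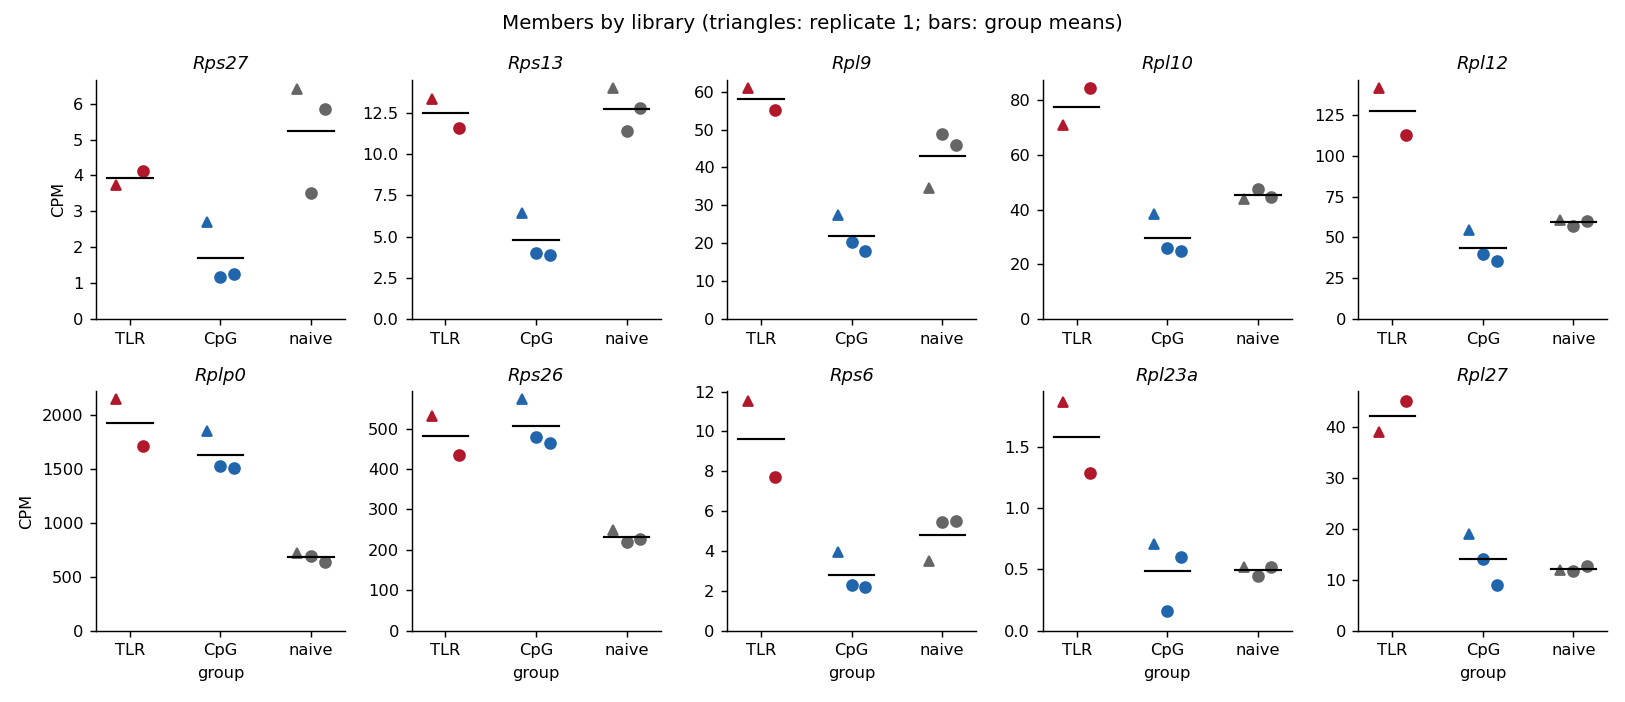
TMM-scaled CPM of 10 members in each library, by group, with triangles for replicate 1 and bars for group means; each panel has its own axis from 0. In the upper row (Rps27, Rps13, Rpl9, Rpl10, Rpl12) every CpG library lies below every naive and every TLR library; in the lower row Rplp0 and Rps26 are high in TLR and CpG libraries, and Rps6, Rpl23a and Rpl27 are high in TLR libraries.

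The highest change of TLR over CpG was that of Rps6, the small subunit protein phosphorylated by the S6 kinases below mTORC1. It had 11.5 and 7.74 CPM in TLR libraries, against 3.93, 2.30 and 2.18 CPM in CpG libraries (1.79 ± 0.35, edgeR adjusted p = 0.00301), while naive libraries had 3.49, 5.46 and 5.53 CPM. Both TLR libraries were above all others, and with named copies added the change was 0.93 (edgeR adjusted p = 0.0202). Rpl27, a large subunit protein, had 39.0 and 45.1 CPM in TLR libraries, against 19.1, 14.0 and 9.05 CPM in CpG libraries (1.59 ± 0.25, edgeR adjusted p = 0.000945). Rpl10a, the protein of the L1 stalk that guides spent tRNA out, had 242 and 217 CPM in TLR libraries, against 113, 56.0 and 69.5 CPM in CpG libraries (1.53 ± 0.24, edgeR adjusted p = 0.000854). Rpl27 and Rpl10a had naive levels inside or close to the CpG range, at 11.8 to 12.8 CPM and 63.5 to 75.0 CPM.

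Both proteins that carry 5S ribosomal RNA, and that bind Mdm2 and so stabilise p53 when ribosome assembly fails, were higher in TLR than in CpG libraries. Rpl5 had 33.3 and 38.4 CPM in TLR libraries, against 20.9, 16.7 and 12.7 CPM in CpG libraries (1.10 ± 0.22, edgeR adjusted p = 0.00329). Rpl11 had 35.2 and 41.9 CPM in TLR libraries, against 21.1, 15.1 and 13.1 CPM in CpG libraries (1.23 ± 0.21, edgeR adjusted p = 0.00139). Neither was called between CpG and naive libraries (-0.44 ± 0.20 and -0.22 ± 0.19). Exons of Rpl5 overlap those of Fam69a on the opposite strand.

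Rpl23a and Rps29 completed the 5 highest changes of TLR over CpG, both from few reads. Rpl23a, where nascent chains leave the tunnel, had 1.87 and 1.29 CPM in TLR libraries, against 0.709, 0.160 and 0.600 CPM in CpG libraries (1.69 ± 0.56, edgeR adjusted p = 0.0374). Its call was lost without naive replicate 2, naive replicate 3, CpG replicate 2, CpG replicate 3, TLR replicate 1 or TLR replicate 2 (edgeR adjusted p = 0.0521 to 0.216), and with named copies added the change was 0.94 (edgeR adjusted p = 0.126). Rps29 had 7.64 and 3.56 CPM in TLR libraries, against 3.48, 1.28 and 0.764 CPM in CpG libraries (1.61 ± 0.56, edgeR adjusted p = 0.0437). The Rps29 call was lost without naive replicate 2, naive replicate 3, CpG replicate 2, CpG replicate 3 or TLR replicate 1 (edgeR adjusted p = 0.0576 to 0.346), its value was 0.96 without TLR replicate 1, and it was 2.44 without CpG replicate 1. Among the lowest fitted changes of TLR over CpG, none of them called, were those of Rps19 -0.30 ± 0.19, Rpl13a -0.22 ± 0.26, Rps26 -0.07 ± 0.15 and Rpl26 -0.01 ± 0.26.

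Over both steps together, 60 of 80 members were called higher and 0 lower in TLR than in naive libraries, where 31.6% of all tested genes were called higher and 29.7% lower. None was lower at an unadjusted edgeR p below 0.05 or in DESeq2. The median log2 fold change of TLR over naive was 0.79 over the members and 0.01 over all tested genes. Without TLR replicate 1 the member median was 0.67. Scaled to all lines, 11 of 79 members were higher, against 1938 of all 13814 tested genes, so the shares were about equal. The called members included all 3 P stalk genes, both 5S genes, 22 of 32 small subunit genes and 38 of 48 tested large subunit genes. The call of Rpl5 (0.66 ± 0.22, edgeR adjusted p = 0.0243) was lost without naive replicate 1, naive replicate 2 or TLR replicate 2 (edgeR adjusted p = 0.0505 to 0.138) and under a replicate block (edgeR adjusted p = 0.05002). That of Rplp2 (0.79 ± 0.26, edgeR adjusted p = 0.0237) was lost without naive replicate 2, naive replicate 3, TLR replicate 1 or TLR replicate 2 (edgeR adjusted p = 0.0557 to 0.102) and in the RCa18 libraries (edgeR adjusted p = 0.111). Rplp0 averaged 1926 ± 306 CPM in TLR libraries (SD, n = 2) and 683 ± 40.1 CPM in naive libraries (SD, n = 3), a log2 fold change of 1.495 ± 0.15 (edgeR adjusted p = 2.5e-05). The highest fitted values were those of Rps27l (2.01 ± 0.14), Rpl27 (1.79 ± 0.25), Rpl39l (1.78 ± 0.65), Rpl10a (1.72 ± 0.24) and Rpl23a (1.65 ± 0.55), of which Rpl39l lost its call without naive replicate 2, naive replicate 3, CpG replicate 3 or TLR replicate 1 and Rpl23a without naive replicate 2, naive replicate 3, TLR replicate 1 or TLR replicate 2. The lowest fitted values were not called, among them Rps27 -0.42 ± 0.42, Rps13 -0.03 ± 0.25, Rps21 0.22 ± 0.29 and Rpl13a 0.34 ± 0.26.

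**Figure D3:**
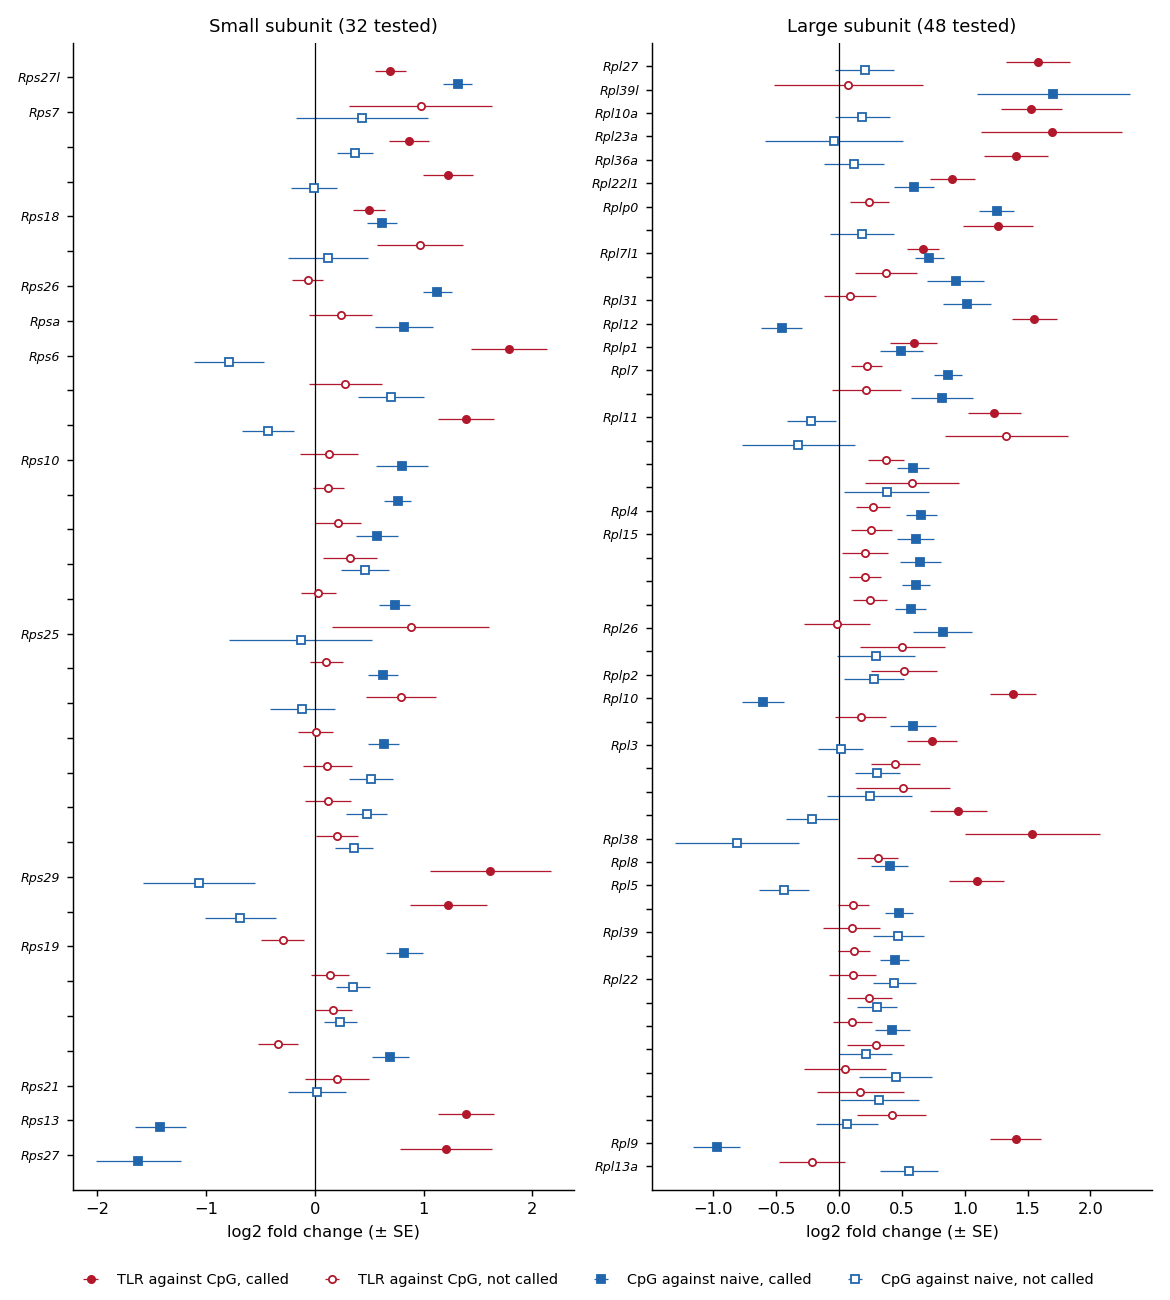
Log2 fold changes ± SE of the 32 small subunit (left) and 48 tested large subunit genes (right), ordered by the change of TLR over naive, with circles for TLR against CpG and squares for CpG against naive; filled symbols passed the edgeR test, and names are given for members described in the text. The median was 0.31 for TLR against CpG and 0.43 for CpG against naive, and 10 members are filled in both steps, 5 of them with changes of opposite sign. Both steps use the CpG libraries, so they are not independent.

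Read across both steps, 28 members were higher in CpG than in naive libraries and not called between TLR and CpG, and 16 were not called between CpG and naive and higher in TLR than in CpG libraries. Called higher in both were 5 members: Rps27l, Rpl22l1, Rpl7l1, Rplp1 and Rps18. The TLR over CpG call of Rplp1 (0.59 ± 0.19, edgeR adjusted p = 0.03) was lost without CpG replicate 2, CpG replicate 3, TLR replicate 1 or TLR replicate 2, and that of Rps18 (0.50 ± 0.15, edgeR adjusted p = 0.0257) without CpG replicate 2, CpG replicate 3 or TLR replicate 1. In neither step were 26 called, of which 13 were higher in TLR than in naive libraries. The 3 comparisons share libraries, so these counts describe the members and are no test of one step against another. No share over all tested genes is given for these patterns, so none of them is read as particular to the members.

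The members that moved at each step stood at different levels. Ranked by mean CPM per kb over all libraries and cut into 3 classes of level, the 27 lowest (0.485 to 52.7 CPM per kb) had 4 members higher and 3 lower in CpG than in naive libraries. The middle 27 (55.6 to 284 CPM per kb) had 12 higher and 2 lower, and the 26 highest (292 to 2372 CPM per kb) had 17 higher and 0 lower. Between TLR and CpG libraries the order was the opposite, with 16 members higher in the lowest class, 8 in the middle and 2, Rps18 and Rplp1, in the highest. Over all tested genes 23.5% were called higher and 21.9% lower in CpG against naive, and 19.0% higher in TLR against CpG. The lowest class was below these shares in CpG against naive, and the highest class was below the share in TLR against CpG. The median log2 fold changes of CpG over naive were -0.11, 0.46 and 0.59 from the lowest to the highest class, and those of TLR over CpG were 1.22, 0.32 and 0.20. Across the 80 members, Spearman's rho between level per kb and log2 fold change was 0.51 for CpG against naive, where it was 0.14 over 13375 tested genes, and -0.60 for TLR against CpG, where it was 0.09. Members share the libraries from which both quantities come, so these are descriptions.

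**Figure D4:**
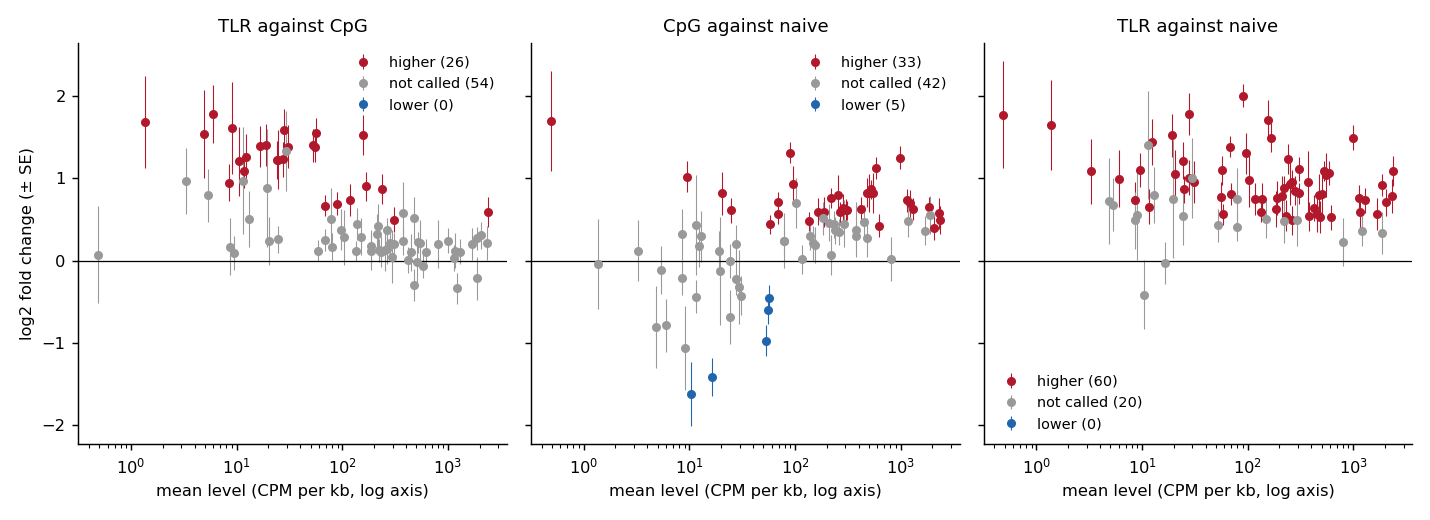
Log2 fold change ± SE of the 80 tested members against their mean level over all libraries (CPM per kb of transcript, log axis), for TLR against CpG (left), CpG against naive (middle) and TLR against naive (right), coloured by the edgeR call. Of the members called higher in TLR against CpG, 16 of 26 are in the lowest class by level and 2 in the highest, and of those called higher in CpG against naive, 4 of 33 are in the lowest class and 17 in the highest. Over all tested genes 19.0% were called higher in TLR against CpG and 23.5% in CpG against naive.

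In all 8 fits that left out a library, and in the 5 RCa18 libraries, the highest class held more members called higher in CpG than in naive libraries than the lowest class did (11 to 23 against 2 to 4), and the lowest class held more members called higher in TLR than in CpG libraries (10 to 22 against 0 to 3). The lower calls and the median of the lowest class in CpG against naive moved more: 10 members were lower without CpG replicate 1 and 8 in the RCa18 libraries, and the median was -0.44 without CpG replicate 1, 0.09 without CpG replicate 2, 0.04 without CpG replicate 3 and 0.06 with named copies added, so its sign is not settled. The median share of windows shared with other loci was 54.3%, 49.3% and 46.7% from the lowest to the highest class. Over the 80 members, Spearman's rho between shared percent and log2 fold change was -0.35 for CpG against naive and 0.39 for TLR against CpG. With named copies added, the lowest class had 12 members higher in TLR than in CpG libraries and a median of 0.96. Divided by sharing instead, the 36 members with at least 50% shared windows had 12 higher and 4 lower in CpG than in naive libraries and 18 higher in TLR than in CpG libraries. The 44 tested members below 50% had 21 higher and 1 lower, then 8 higher. Their share called higher in TLR against CpG was thus not above the 19.0% of all tested genes. In CpG against naive, 23.5% of all tested genes were called higher and 21.9% lower. The median log2 fold change of TLR over CpG was 0.67 at 50% shared or more and 0.23 below it. Over all tested genes it was -0.02. The part of sharing in the changes was not tested beyond these descriptions.

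Paralogs of core genes can be set beside their partners; 30%, 64.8% and 21.6% of the windows of Rps27l, Rpl22l1 and Rpl7l1 were shared with other loci. Rps27l, known as a p53 target, had 86.4 and 69.7 CPM in TLR libraries, 54.1, 48.3 and 42.4 CPM in CpG libraries and 18.9, 19.8 and 19.4 CPM in naive libraries. The 3 groups did not overlap, and the log2 fold changes were 0.69 ± 0.14 for TLR over CpG (edgeR adjusted p = 0.00362), 1.31 ± 0.13 for CpG over naive (edgeR adjusted p = 5.42e-05) and 2.01 ± 0.14 for TLR over naive (edgeR adjusted p = 2.72e-06). Without TLR replicate 1 the change of TLR over CpG was 0.53 (edgeR adjusted p = 0.0521). Its core partner Rps27, described above, was lower in CpG than in naive libraries, with 98.7% of its windows shared.

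Rpl22l1, the paralog of Rpl22, had 165 and 149 CPM in TLR libraries, 81.9, 105 and 65.4 CPM in CpG libraries and 58.7, 50.8 and 57.5 CPM in naive libraries. It was called in TLR over CpG (0.90 ± 0.18, edgeR adjusted p = 0.00294; not in the RCa18 libraries alone, 0.81, edgeR adjusted p = 0.0652) and in CpG over naive (0.60 ± 0.16, edgeR adjusted p = 0.0137; 0.53, edgeR adjusted p = 0.0581 without naive replicate 2). Rpl22, needed in mice for the development of alpha-beta T cells, averaged 559 ± 59.9 CPM in TLR, 518 ± 106 CPM in CpG and 382 ± 48.7 CPM in naive libraries and was called in neither step. Rpl7l1, a paralog of Rpl7, had 279 and 288 CPM in TLR libraries, 170, 191 and 174 CPM in CpG libraries and 94.5, 121 and 110 CPM in naive libraries. Its groups did not overlap at either step (TLR over CpG 0.67 ± 0.13, edgeR adjusted p = 0.00245; CpG over naive 0.72 ± 0.12, edgeR adjusted p = 0.000872). Rpl7 was higher in CpG than in naive libraries, as above, and its change of TLR over CpG, 0.22 ± 0.12, was not called. Whether a paralog changed more than its partner was not tested. Rpl36a, which touches tRNA at the exit site, was higher in TLR than in CpG libraries (1.41 ± 0.26, edgeR adjusted p = 0.00203), and its retrogene Rpl36al was not called (0.15 ± 0.24).

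**Figure D5:**
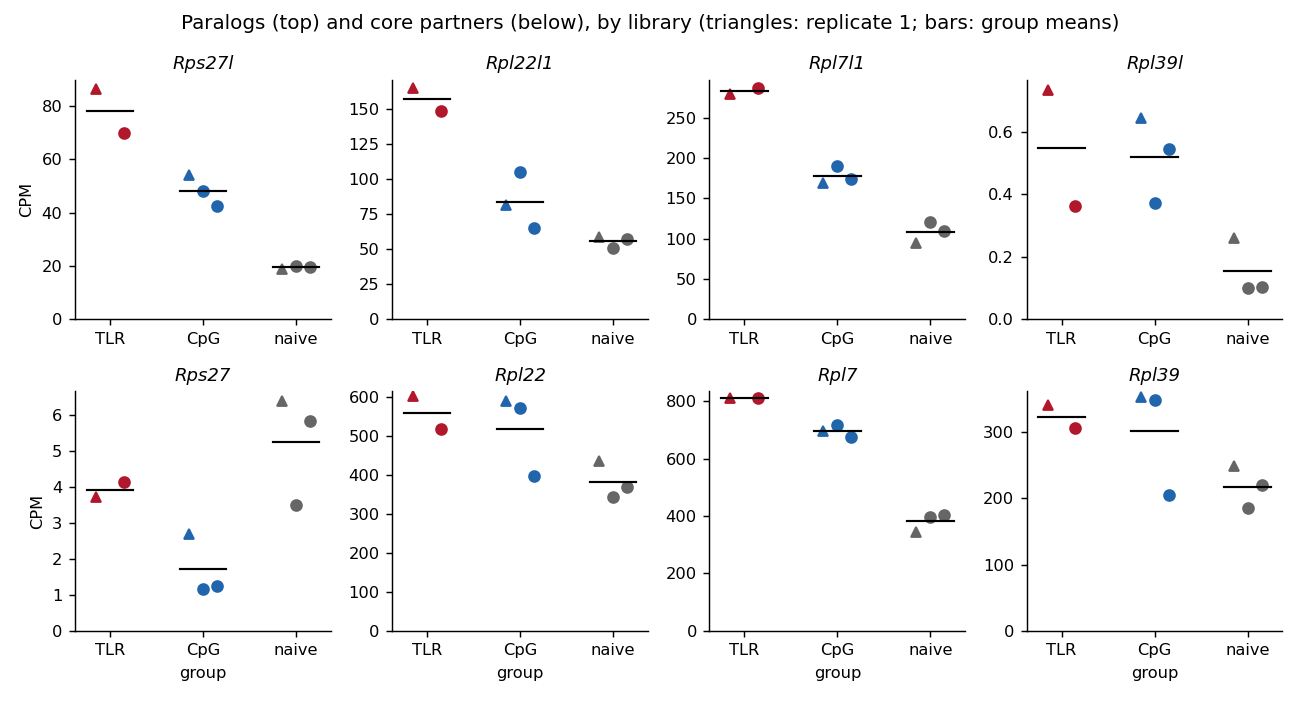
TMM-scaled CPM by library for 4 paralogs (upper row) and their core partners (lower row), by group, with triangles for replicate 1 and bars for group means; each panel has its own axis from 0. The libraries of Rps27l and Rpl7l1 separate into 3 levels in the order TLR, CpG, naive, while Rps27 is lowest in CpG libraries and Rpl39l stays below 1 CPM.

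Libraries of a group differed for many members, and in a shared direction. Replicate 1 was the highest library of all 3 groups for 45 of the 80 tested members (56.2%), against 12.1% of all tested genes. These levels are scaled to gene counts, and as a share of all lines the summed members were lowest in replicate 1 of each group. The level in replicate 1 over the mean of the other replicates, averaged over groups on the log scale, had a median ratio of 1.21 and ran from 0.831 for Rpl15 to 2.88 for Rps25. Rps25, a small subunit protein that some viral messages depend on, had 48.0 and 26.0 CPM in TLR libraries, 42.2, 12.9 and 5.40 CPM in CpG libraries and 38.5, 13.1 and 14.2 CPM in naive libraries, so that the prefix separated its libraries and the groups did not. Rps7 followed it, with 25.9 and 11.6 CPM in TLR, 19.1, 4.97 and 4.64 CPM in CpG and 11.97, 4.05 and 5.16 CPM in naive libraries. CpG replicate 3 was the lowest CpG library for 63 members (78.8%), against 29.5% of all tested genes. Compared within prefix RCa1, a single library against another, 69 of 80 members were higher in TLR than in CpG, 70 in CpG than in naive and 78 in TLR than in naive. These were 86.25%, 87.5% and 97.5% of members, against 49.7%, 50.8% and 50.3% of all tested genes. Within RCa18 the numbers were 69, 54 and 77, with median log2 differences of 0.34, 0.37 and 0.74. They made up 86.25%, 67.5% and 96.25% of members, against 48.45%, 49.96% and 51.09% of all tested genes. The median log2 differences of all tested genes within RCa18 were -0.0142, -0.000654 and 0.0258, in the same order.

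Grouped by function, the 33 universal proteins, whose families are shared with bacteria, had 13 higher and 4 lower in CpG than in naive libraries and 12 higher in TLR than in CpG libraries. The 47 other tested members had 20 higher and 1 lower, then 14 higher. For these lists and those that follow, the shares over all tested genes were 23.5% higher and 21.9% lower in CpG against naive, and 19.0% higher and 19.8% lower in TLR against CpG. Genes mutated in Diamond-Blackfan anaemia in humans had 5 of 13 higher in CpG than in naive libraries, namely Rps10, Rps19, Rps26, Rpl26 and Rpl15, and 4 of 13 higher in TLR than in CpG libraries, among them Rpl5 and Rpl11. Of these calls in CpG against naive, that of Rps10 was lost without naive replicate 2, naive replicate 3 or CpG replicate 1, and that of Rpl26 without naive replicate 2 or naive replicate 3. Of 4 ribosomal proteins that the naming rule leaves out, Rack1, a scaffold on the small subunit, was higher in CpG (2747 ± 279 CPM) than in naive libraries (1689 ± 55.0 CPM; 0.70 ± 0.14, edgeR adjusted p = 0.00284), and the other 3 were not called in that comparison.

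Other genes of the pathway were taken from lists of translation, ribosome control and assembly genes. Among 17 other genes with TOP messages, 13 were higher in CpG than in naive libraries and 7 higher in TLR than in CpG libraries, with none called lower by edgeR in either. Eef1b2, the exchange factor of elongation, averaged 1639 ± 83.8 CPM in TLR, 1115 ± 72.7 CPM in CpG and 608 ± 27.2 CPM in naive libraries. Npm1, a nucleolar chaperone of ribosome assembly, averaged 1051 ± 72.9 CPM in TLR, 435 ± 75.5 CPM in CpG and 236 ± 13.9 CPM in naive libraries. Both were called at each step (edgeR adjusted p = 0.00612 and 0.000243 for Eef1b2, 0.000199 and 0.000896 for Npm1, TLR over CpG first).

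Of 15 genes that control these messages, 7 were higher and 1 lower in TLR than in CpG libraries, and 3 were higher and 1 lower in CpG than in naive libraries, where 23.5% of all tested genes were higher, so that the share of this list was not above that of all genes. Myc had 392 and 327 CPM in TLR libraries, 98.0, 137 and 137 CPM in CpG libraries and 76.9, 91.1 and 87.2 CPM in naive libraries (1.54 ± 0.16 for TLR over CpG, edgeR adjusted p = 9.03e-05). Its change of CpG over naive, 0.54 ± 0.15, was called (edgeR adjusted p = 0.0152) and lost without naive replicate 1 or CpG replicate 3 (0.46 and 0.47). Larp1, which binds the TOP tract, averaged 619 ± 29.7 CPM in TLR and 265 ± 27.8 CPM in CpG libraries (1.22 ± 0.13, edgeR adjusted p = 7.18e-05). Eif4ebp1, the translation repressor that mTORC1 silences, averaged 252 ± 109 CPM in TLR, 67.7 ± 30.7 CPM in CpG and 17.6 ± 0.243 CPM in naive libraries.

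Chaperones that carry single ribosomal proteins to the assembling subunit had 7 of 9 tested genes higher in TLR than in CpG libraries, and 4 higher and 1 lower (Pdcd2l) in CpG than in naive libraries, against 19.0% and 23.5% of all tested genes called higher. Grwd1, the chaperone of Rpl3, had 157 and 166 CPM in TLR libraries, against 46.1, 38.5 and 42.6 CPM in CpG libraries (1.93 ± 0.12, edgeR adjusted p = 5.84e-06). Its client Rpl3 had 224 and 230.3 CPM in TLR libraries, against 135, 167 and 107 CPM in CpG libraries (0.74 ± 0.20, edgeR adjusted p = 0.0143; lost without TLR replicate 1 or TLR replicate 2, edgeR adjusted p = 0.0604 and 0.0719). Heatr3, which helps import Rpl5 and Rpl11, averaged 116 ± 6.01 CPM in TLR and 53.6 ± 4.10 CPM in CpG libraries (1.12 ± 0.12, edgeR adjusted p = 8.76e-05). Gas5, a host of small nucleolar RNAs with a TOP message, averaged 838 ± 14.9 CPM in TLR, 435 ± 43.1 CPM in CpG and 285 ± 14.8 CPM in naive libraries. Of 8 such host genes 3 were tested, and 2 were higher in TLR than in CpG libraries, 2 in CpG than in naive libraries and 3 in TLR than in naive libraries.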

How the data were processed

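Each deposited file lists unnormalized counts for every gene, made per the submitters' processing notes with STAR, HTSeq and edgeR on build mm9, with no versions given; library preparation was strand-specific per the labels, and the file names say that counting ignored strand. The annotation release and read length are not given in the sources used here. Symbols, biotypes and transcripts came from GENCODE M21 by identifier (32860 matched, 4723 did not), and 15 members have exons overlapping a gene on the opposite strand. The fit used edgeR 4.0.16 (R 4.3.3): filterByExpr (13964 genes), TMM, and a quasi-likelihood fit over all 8 libraries with a mean per group; p-values were adjusted over all tested genes (Benjamini-Hochberg) and called below 0.05. CPM is scaled by TMM factors, and 1 count was worth 0.0501 to 0.0645 CPM. The 5 summary lines stayed out of the library sizes. Windows of 30 bases of each principal transcript were sought, on the transcript strand, in all GENCODE transcripts of loci that do not overlap it.

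Alternatives were DESeq2 1.42.0, other scalings and filters, the groups compared alone, the replicate number or file prefix as a term, the RCa18 libraries alone, named pseudogene copies added, and each library left out; counts by class of level, by sharing and without opposite-strand overlaps were added after seeing the data. The fit was tested on simulated data. Members and lists were chosen with earlier results of these data known. Named members were the 5 highest and 5 lowest fitted changes of each comparison, the P stalk and 5S genes, Rpsa, Rps6, Rps19, Rpl13a, Rpl10 and paralog pairs; other members were named after their values were seen, and from other lists up to 4 called genes each were eligible. A few items are not reported here.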

Additional observations from a re-analysis of the deposited data

Results flagged for a closer look

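Named pseudogene copies of the members, 193 identifiers outside the member list, held counts that were higher in treated than in naive libraries, which is why they are listed. Copies with enough counts are among all tested genes. They took 0.0326% and 0.0260% of gene counts in TLR libraries (mean 0.0293%), 0.0311%, 0.0241% and 0.0208% in CpG libraries (mean 0.0253%), and 0.0180%, 0.0165% and 0.0159% in naive libraries (mean 0.0168%). Whether these counts are transcripts of the copies or reads of the members placed there was not tested.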

How the results depend on the processing

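Under 13 other settings and each library left out, the member counts stayed within 1.5 times their main value except as follows. With library sizes set to all lines, multiply aligned reads included, 3 of 79 members were higher in CpG than in naive, 15 in TLR than in CpG and 11 in TLR than in naive libraries. Of all 13814 tested genes, 1456, 598 and 1938 were higher, in the same order. The member share was thus below that of all genes in CpG over naive, above it in TLR over CpG and about equal in TLR over naive. This scaling moved the median of all genes to -0.04, -0.15 and -0.17 for CpG over naive, TLR over CpG and TLR over naive, against member medians of 0.32, 0.19 and 0.58. As a share of all lines the members averaged 1.87% in TLR, 1.77% in CpG and 1.26% in naive libraries. In the RCa18 libraries 10 members were lower in CpG than in naive, and with the prefix as a term 1 was lower in TLR than in CpG libraries. Leaving out 1 library gave 21 to 43 higher and 3 to 12 lower in CpG than in naive, 15 to 34 higher and 0 to 1 lower in TLR than in CpG, and 35 to 68 higher in TLR than in naive libraries. In fits without 1 naive or CpG library, 2539 to 3439 of all 13682 to 13910 tested genes were higher in CpG than in naive libraries. Those fits had 2320 to 2736 higher in TLR than in CpG and 3833 to 4671 in TLR than in naive libraries. The cause of the changes in member counts was not tested.

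The labels do not say that replicate numbers pair samples, and deviations of same-numbered libraries correlated at -0.000255 to 0.328. The replicate 1 libraries also share the file prefix RCa1, and their pairs correlated at 0.105, 0.145 and 0.322; same-numbered replicates 2 and 3 share only a number and the prefix RCa18 that all of them carry. With the replicate block, 41 members were higher and 6 lower in CpG than in naive, 28 higher in TLR than in CpG and 57 higher in TLR than in naive libraries.

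Among the genes named, changes of sign touched only values that were not called in the fit of all libraries. For CpG over naive, Rpl3 was -0.024 with DESeq2, RLE factors or all lines, -0.0079 with library size alone, -0.0026 with no filter, -0.012 with a mean of at least 1 CPM and -0.15 to 0.16 with 1 library left out; Rpl36a was -0.037 with all lines, -0.26 in the RCa18 libraries and -0.14 to 0.25 with 1 left out; Rps6 was 0.021 with named copies added. For TLR over CpG, Rpl26 was 0.0046 with library size alone, Rpl22 -0.016 and Rpl39 -0.0064 with all lines. Rpl39l was -0.0087 with the replicate block, -0.12 with the prefix as a term and -0.34 in the RCa18 libraries. Rps4x was -0.0090 with DESeq2, -0.0089 with RLE factors, -0.15 with all lines, -0.033 with a mean of at least 1 CPM and -0.076 in the RCa18 libraries, and the transcribed pseudogene Rps4l was 0.019 with the replicate block and 0.061 in the RCa18 libraries. With 1 library left out, TLR over CpG ran from -0.31 to 0.28 for Rpl26, -0.22 to 0.068 for Rps26, -0.52 to 0.032 for Rpl13a, -0.12 to 0.55 for Rpsa, -0.11 to 0.31 for Rpl36al, -0.053 to 0.21 for Rpl22, -0.12 to 0.23 for Rpl39, -0.51 to 0.49 for Rpl39l, -0.096 to 0.068 for Rps4x and -0.38 to 0.047 for Rps4l. For TLR over naive, Rps13 was 0.29 with named copies added and -0.13 to 0.073 with 1 left out, and Rps4l was -0.021 with all lines.

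Counting ignored strand, and without the 15 members that overlap a gene on the opposite strand, 27 of 65 were higher and 4 lower in CpG than in naive libraries. Of the 65, 19 were higher in TLR than in CpG and 47 in TLR than in naive libraries, with 0 lower. Over all tested genes 23.5%, 19.0% and 31.6% were called higher and 21.9%, 19.8% and 29.7% lower, in the same order. Members with few counts, such as Rpl39l and Rpl23a, are limited by depth.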
